A study of Saccharomyces cerevisiae W303 with 16 samples.

Results

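A ribosome that reads through a stop codon translates into the 3’-UTR until the next stop codon in the same frame, and the stretch between is called the extension. Of the 6575 transcripts in the readthrough tables, 2833 have an annotated 3’-UTR, and 891 of these (31.5%) have an extension of 1 to 15 nt. These 891 very short extensions are described here. The rule that picked them used length only, among transcripts whose 3’-UTR is not at the default of 176 nt, the length given to genes without annotation. It was set with earlier results of these data known. The extension was 3 nt long in 185 transcripts, 6 nt in 197, 9 nt in 223, 12 nt in 143 and 15 nt in 139. The other 4 (*YIL014W*, *YIL113W*, *YML053C* and *YOR022C*) meet no further in-frame stop codon, so that their extension ends with the 3’-UTR. Footprints are placed by the codon in the ribosomal P site, and the deposited CDS length leaves out the stop codon, so the extension begins with the canonical stop codon itself. In a 3 nt extension the canonical stop codon is thus followed directly by another stop codon. Extensions made up 5.77% of the summed 3’-UTR length of the 891.

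In eukaryotes a stop codon in the ribosomal A site is recognized by eRF1, which in yeast is encoded by *SUP45* and acts with the GTPase eRF3 to release the finished peptide. When eRF1 is slow or missing, a near-cognate tRNA can decode the stop codon instead, and the ribosome goes on in frame. It then has to terminate at the next stop codon with the same eRF1, and a very short extension places that codon only a few codons on.

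There were 4 conditions with 2 replicates each, measured by rRNA-depleted RNA-Seq and by ribosome profiling, in which the mRNA fragments protected by ribosomes (footprints) are sequenced. Wild-type *SUP45* cells and cells with the temperature-sensitive *sup45-2* allele (*sup45-ts*), a strain derived from them, both in the W303 background, were grown at 25°C. Both were then kept for 30 min at 37°C or put through a mock shift at 25°C, so heat alone separates the *SUP45* conditions, and heat and eRF1 together separate *sup45-ts* at 37°C from both strains at 25°C. The replicates of a condition had been combined before footprints were counted. Each readthrough value is therefore single, its interval covers counting error only, and no test between conditions was possible. Where 4 values follow each other below, their order is *SUP45* 25°C, *SUP45* 37°C, *sup45-ts* 25°C, *sup45-ts* 37°C.

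The 4 readthrough tables held between 6463100 (*sup45-ts* at 37°C) and 21557248 (*sup45-ts* at 25°C) CDS and 3’-UTR footprints, so the condition with the most readthrough was also the shallowest. RNA-Seq libraries held 107324550 to 153654244 expected counts. No extension sequence is shown, and the identity of the stop codons was not used. Positions inside the extension are not in the tables either, so footprints at the next stop codon could not be set apart from those before it. The 3 nt extensions are the exception, since their only codon is counted when it lies in the P site and the next stop codon in the A site.

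Very short extensions carried footprints in every condition, few in *SUP45* cells and many in *sup45-ts* cells at 37°C, where eRF1 is inactive. Frame 0 footprints in the 891 extensions numbered 1172, 374, 3894 and 51385. CDS footprints of the same transcripts numbered 7953541, 6539920, 9824974 and 1782329. The extension density, pooled over the transcripts with each transcript’s CDS density as its own reference, was 1.17% of the CDS density in *SUP45* at 25°C (exact 95% Poisson interval 1.10 to 1.23%) and 0.582% after the shift to 37°C (0.525 to 0.644%). It was 3.29% in *sup45-ts* at 25°C (3.19 to 3.39%) and 306% after the shift (303 to 308%). A density above that of the CDS is not a share of ribosomes that read through, since ribosomes that wait at the next stop codon are counted too.

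Between the strains, the pooled density was 525 times as high in *sup45-ts* as in *SUP45* at 37°C (474 to 583) and 2.82 times at 25°C (2.64 to 3.01). From 25°C to 37°C it was 92.9 times as high in *sup45-ts* cells (89.9 to 96.0) and 0.499 times in *SUP45* cells (0.443 to 0.561). The intervals of the 4 conditions did not overlap. The spread between cultures is not known, because the replicates were combined.

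Longer extensions moved by similar factors from lower densities. Extensions of 16 to 60 nt (1235 transcripts) had pooled densities of 0.804%, 0.464%, 2.73% and 247% of the CDS density. Extensions over 60 nt (707 transcripts) had 0.380%, 0.203%, 1.12% and 127%. At 37°C the ratio of *sup45-ts* to *SUP45* was 525 for the very short extensions (interval 474 to 583), 534 (494 to 577) for 16 to 60 nt and 622 (569 to 682) for over 60 nt. The first 2 intervals overlap widely and reach into the third. Without the 3 leading members of each class the ratios were 499, 541 and 458, so the longest class went from the highest to the lowest. At 25°C the ratio was lower for the very short extensions, at 2.82 (2.64 to 3.01), than for 16 to 60 nt, at 3.40 (3.21 to 3.59), and close to the 2.95 (2.75 to 3.17) of extensions over 60 nt. There the ratios without the 3 leading members were 2.95, 3.24 and 2.73, so the gap to 16 to 60 nt was smaller.

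**Figure D1:**
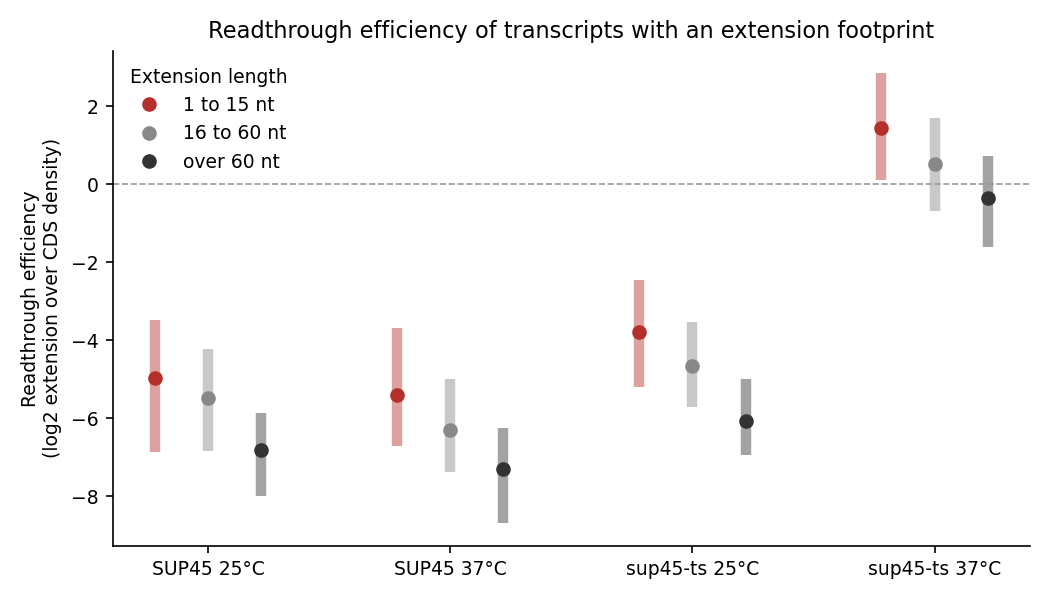
Readthrough efficiency (log2 of extension density over CDS density) of transcripts that had an extension footprint and a CDS RPKM of 5 or more, by condition and extension length. Points are medians over transcripts and bars run from the lower to the upper quartile. Very short extensions have the highest median in each condition, 1.45 in *sup45-ts* cells at 37°C against 0.53 and -0.35 for the longer classes.

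Per transcript, readthrough efficiency is the log2 ratio of extension density to CDS density. Among members that had an extension footprint and a CDS RPKM of 5 or more, its median was -4.96, -5.41, -3.79 and 1.45 over 219, 139, 376 and 752 members. For extensions of 16 to 60 nt the medians were -5.48, -6.30, -4.67 and 0.53, and for those over 60 nt -6.81, -7.30, -6.08 and -0.35. The order of the 3 classes was the same in each condition. In the 3 conditions with few footprints, 1 footprint in a window of 3 nt is already a high density, and members without any are left out. A value above 0 (a density above that of the CDS) was found for 575 of the 752 members (76.5%) in *sup45-ts* at 37°C. In the *SUP45* tables such values rested on 1 footprint in *ELG1* at 25°C, and at 37°C on 3 in *CCA1* and 1 in *CLD1*, all named after their values were seen.

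Among members with a CDS RPKM of at least 5, an extension footprint was counted in 219 of 852 (25.7%), 139 of 876 (15.9%), 376 of 849 (44.3%) and 752 of 875 (85.9%). Thinned to the total count of the shallowest table, which leaves the members’ own CDS counts unequal, the first 3 shares would be 15.9%, 8.58% and 28.1%. Of all 891 members, 79 had an extension footprint in all 4 tables, 338 in *sup45-ts* at 37°C only, and 118 in none. An extension without footprints was below detection at this depth, not free of readthrough.

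The footprints were concentrated in few transcripts. Together 19, 15, 22 and 25 members held 50% of all extension footprints. At least 10 were counted in 31, 8, 83 and 424 members. The leading member was *TDH3*, the main glyceraldehyde-3-phosphate dehydrogenase gene, in the first 3 conditions, with 6.74%, 10.7% and 7.06% of the footprints. In *sup45-ts* at 37°C it was *KAR2*, the Hsp70 of the endoplasmic reticulum, with 6.67%. The members held 54.7%, 49.8%, 54.6% and 43.5% of the CDS footprints of all transcripts with an annotated 3’-UTR. Their extensions held 31.1%, 24.5%, 28.5% and 17.1% of the extension footprints.

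**Figure D2:**
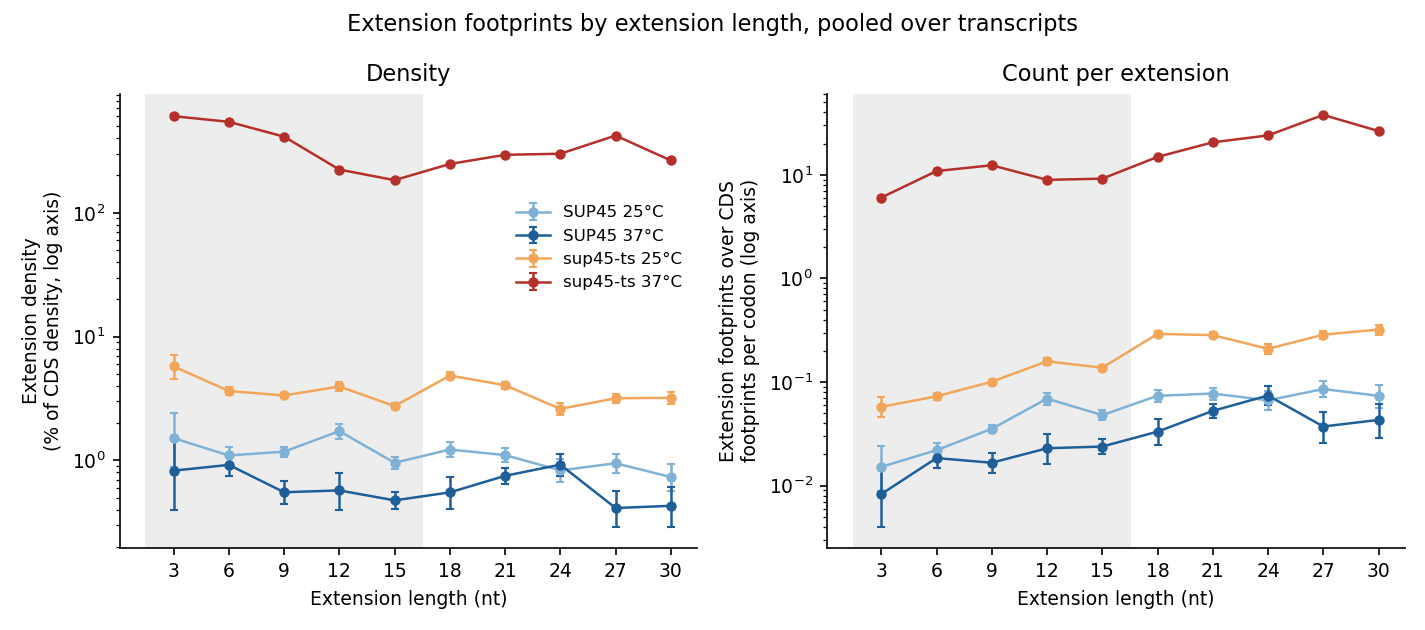
Pooled extension density as a percentage of CDS density (left) and pooled extension footprints divided by CDS footprints per codon (right), by extension length from 3 to 30 nt, in the 4 conditions, on log axes. Bars are exact 95% Poisson intervals and the shaded range holds the very short extensions. In *sup45-ts* cells at 37°C the density falls from 602% at 3 nt to 183% at 15 nt, while the count per extension goes from 6.02 to 9.17.

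Within the very short extensions, density and count behaved differently with length. In *sup45-ts* cells at 37°C the pooled density fell from 602% of the CDS density at 3 nt (interval 579 to 626%) to 543% at 6 nt, 412% at 9 nt, 223% at 12 nt and 183% at 15 nt (180 to 187%). The median readthrough efficiency fell likewise, from 2.52 to 1.89, 1.35, 1.17 and 0.75. The count per extension, expressed as extension footprints over the footprints of an average CDS codon of the same transcripts, was 6.02 at 3 nt (5.79 to 6.26), 10.9 at 6 nt, 12.4 at 9 nt, 8.93 at 12 nt and 9.17 at 15 nt (9.02 to 9.33). Its median over members, those without footprints included, rose at each step, from 3.84 to 4.93, 6.08, 6.56 and 7.69.

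From 3 to 15 nt the length rises 5-fold, while the pooled count in *sup45-ts* at 37°C rose 1.52-fold and the median count 2.00-fold. Single members weighed on the pooled values. *HOR7* held 19.03% of the footprints at 6 nt, *KAR2* 20.96% at 9 nt and *OM45* 22.4% at 12 nt, and without the leading member of each length the pooled counts were 5.64, 8.96, 10.2, 6.98 and 9.65. At 30 nt, outside the very short range, the pooled count was 26.4 and the median 13.5.

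In the other conditions the pooled count was also higher at 15 nt than at 3 nt. In *SUP45* at 25°C it went from 0.0152 at 3 nt (17 footprints) to 0.0220, 0.0353, 0.0691 and 0.0479 at 15 nt, a 3.16-fold rise. In *sup45-ts* at 25°C it went from 0.0575 at 3 nt (79 footprints) to 0.137 at 15 nt, a 2.39-fold rise. In *SUP45* at 37°C it went from 0.00827 at 3 nt (10 footprints) to 0.0238, a 2.88-fold rise. With so few footprints at 3 nt, the interval of the density there ran from 0.883 to 2.43% of the CDS density in *SUP45* at 25°C and from 0.397 to 1.52% at 37°C, so the size of these rises is uncertain.

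**Figure D3:**
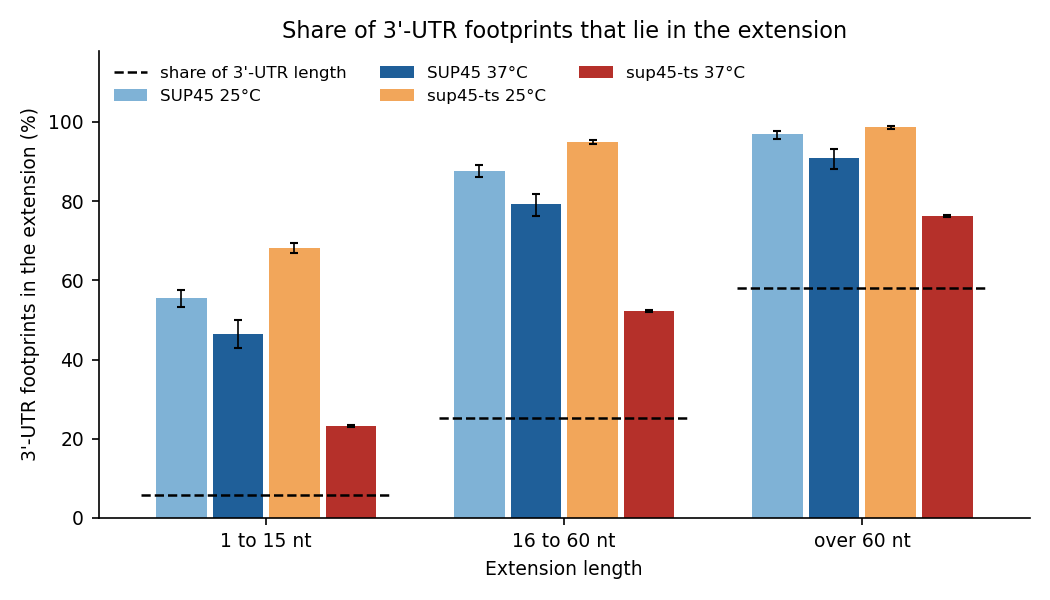
Share of 3’-UTR footprints that lie in the extension, in percent, for 3 classes of extension length in the 4 conditions. Error bars are exact 95% binomial intervals (counting error only), and dashed lines give the share of the 3’-UTR length that the extensions take up. For very short extensions the share is 23.2% in *sup45-ts* at 37°C and 46.5 to 68.1% in the other conditions, against 5.77% of the length.

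Past the extension, the rest of the 3’-UTR (the distal 3’-UTR) also gained footprints. In the 891 transcripts the distal 3’-UTR held 942, 431, 1821 and 170060 footprints. The share of 3’-UTR footprints that lay in the extension was 55.4% (exact 95% binomial interval 53.3 to 57.6%), 46.5% (43.0 to 49.97%), 68.1% (66.9 to 69.3%) and 23.2% (23.03 to 23.4%). Distal density was 0.0638%, 0.0480%, 0.105% and 65.7% of the CDS density. The extension was thus 18.3, 12.1, 31.2 and 4.65 times as dense as the distal 3’-UTR.

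Longer extensions hold more of the 3’-UTR by length. For 16 to 60 nt the extension had 52.2% of the 3’-UTR footprints in *sup45-ts* at 37°C and 25.1% of the length. For over 60 nt it had 76.3% of the footprints and 58.1% of the length. The ratio of extension to distal density in this condition was 4.65 for the very short extensions, 4.48 for 16 to 60 nt and 3.88 for over 60 nt.

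Of the members, 582 had at least 20 3’-UTR footprints in *sup45-ts* at 37°C. The median share in the extension was 23.7% among them, it was above 50% in 144, and 35 had no footprint in the extension. The largest distal counts belonged to *YDR524C-B* (9138 distal and 106 extension footprints), to *HSP150* and *CCW12*, which encode cell wall mannoproteins (8905 and 705, then 7723 and 654), and to *ENO2*, which encodes enolase (6232 and 419). *OM45*, for a protein of the mitochondrial outer membrane, had the opposite split, with 3 distal and 1290 extension footprints in *sup45-ts* at 37°C.

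**Figure D4:**
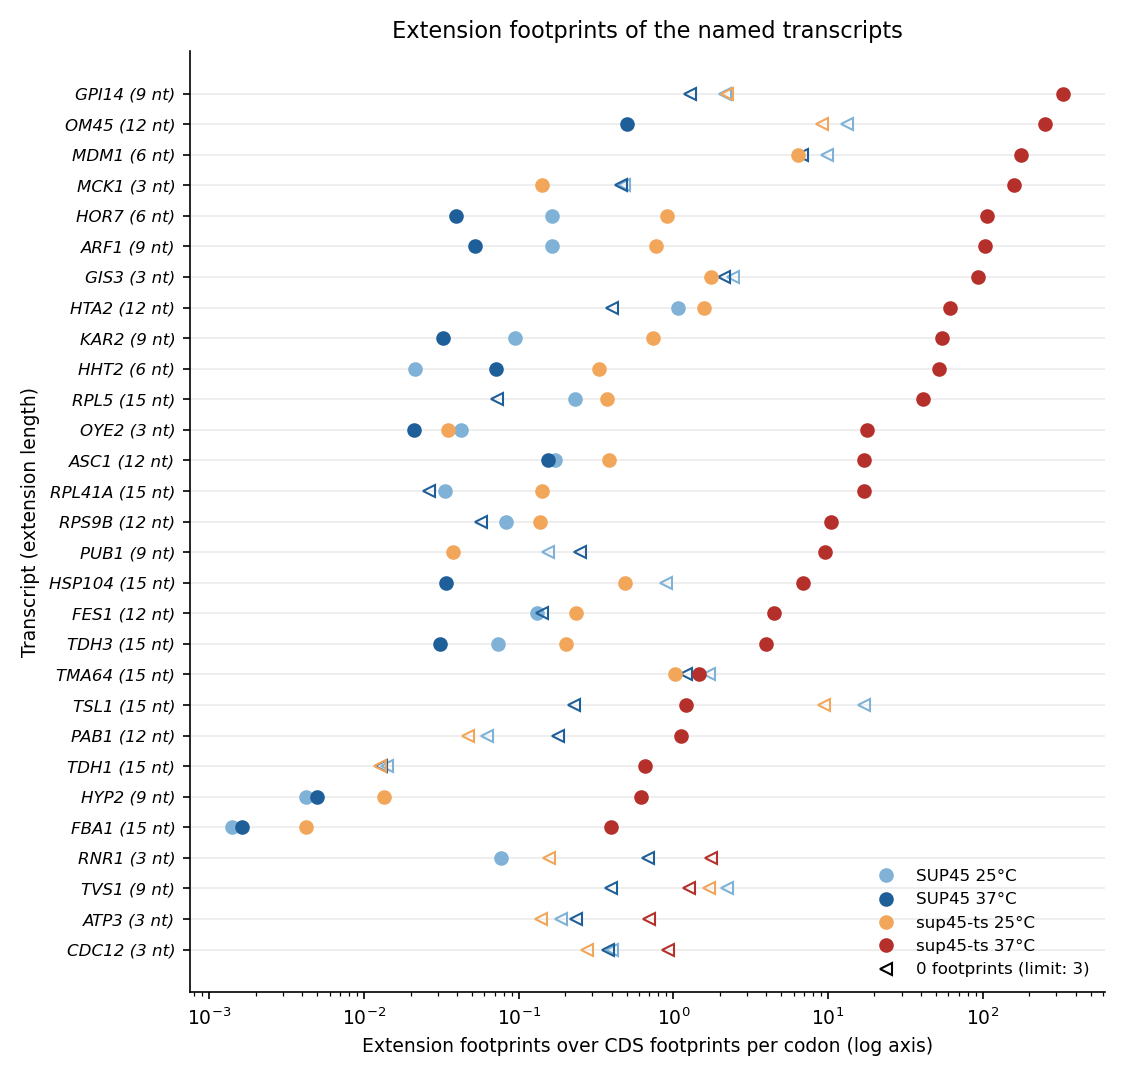
Extension footprints of 29 named transcripts, divided by the footprints of an average CDS codon of the same transcript, in the 4 conditions (log axis). Filled points are measured values, and open triangles mark 0 footprints, drawn at the value that 3 footprints would have. In *sup45-ts* at 37°C the values run from 0.396 in *FBA1* to 332 in *GPI14*, and *RNR1*, *TVS1*, *ATP3* and *CDC12* had no footprint.

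Transcripts at least 2-fold higher in extension over CDS density, with counts under 3 raised to 3, were counted among those with a CDS RPKM of at least 5 in both tables. Between *sup45-ts* and *SUP45* at 37°C, 577 of 866 members were higher and 0 lower, beside 78.9% higher over all annotated transcripts. The shares were 66.6% for the very short extensions, 82.1% for 16 to 60 nt and 88.5% for over 60 nt, in which more footprints fall in each extension. At 25°C, 78 of 847 members (9.21%) were higher in *sup45-ts*, beside 10.6% of all, and 2 were lower, beside 0.186% of all. Those 2, named after their values were seen, were *RPL29*, for a protein of the large ribosomal subunit, with 8 footprints in *SUP45* and 3 in *sup45-ts*, and *YGR026W*, with 6 and 3.

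From 25°C to 37°C in *SUP45* cells, 14 of 850 members were lower, beside 1.49% of all, and 0 were higher, beside 0.111%. The 14 were 1.65% of the members tested, close to the share of all. Only 68 of the 850 had more extension footprints than the floor in either table, so most members could not be called lower. Members of the glycolysis list gave 26.2% of the members’ CDS footprints in *SUP45* at 25°C. Of the 14, named after their values were seen, *TDH3*, *ENO2*, *ADH1*, *GPM1* and *PGI1* encode enzymes of glycolysis and fermentation. Whether this group is over-represented was not tested. The rest of the 14 included *TEF1* for the elongation factor eEF1A (28 footprints at 25°C and 0 at 37°C), *RPL5* and *HTA2*. In *sup45-ts* cells, 550 of 838 members were higher at 37°C than at 25°C, beside 78.4% of all.

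Among the transcripts with the most extension footprints, *KAR2* (9 nt extension, chromosome X, 381327 to 383375 in R64) had 3, 7, 27 and 3429. Its readthrough efficiency was -4.99, -6.54, -2.02 and 4.19. The last condition stood far above the others, and its 3429 footprints were 54.6 times those of an average *KAR2* codon. *HOR7* (6 nt), a gene induced by hyperosmotic stress, had 2, 2, 13 and 2482 extension footprints, and in the last condition 107 times those of an average codon. *ARF1* (9 nt), for a GTPase of vesicle transport, had 14, 4, 80 and 1673.

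*HSP104*, which encodes the disaggregase of the heat shock response and has a 15 nt extension, allowed a comparison at like CDS depth. Its CDS held 208941 footprints in *SUP45* at 37°C and 227908 in *sup45-ts* at 37°C, while its extension held 8 and 1750, a 201-fold higher density. Even so, its readthrough efficiency in *sup45-ts* at 37°C was 0.45, below the median of 0.75 over extensions of 15 nt. *HHT2* (6 nt), 1 of the genes for histone H3, had 2, 3, 27 and 1395 extension footprints. Reads of *HHT2* can be shared with its near-identical copy, as can those of *HTA2*, *RPL41A*, *RPS9B*, *TEF1*, *TDH1*, *TDH3* and *HYP2*, and these counts are uncertain to that extent.

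By extension length, the leading members in *sup45-ts* at 37°C were *OYE2* and *MCK1* at 3 nt, *HOR7* and *HHT2* at 6 nt, *KAR2* and *ARF1* at 9 nt, *OM45* and *FES1* at 12 nt, and *HSP104* and *RPL41A* at 15 nt. *OYE2*, which encodes an NADPH oxidoreductase, had 1, 1, 1 and 242 footprints in its single extension codon. *MCK1*, for a kinase of the GSK-3 family, had 0, 0, 1 and 206. *FES1*, which encodes a nucleotide exchange factor of Hsp70, had 1, 0, 2 and 487, at least a 31.7-fold higher density in *sup45-ts* than in *SUP45* at 37°C when the 0 is raised to 3 footprints. *OM45* had 0, 2, 0 and 1290, which was 255 times the footprints of its average codon.

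Readthrough efficiency differed widely between members that passed a limit on footprints. In *sup45-ts* at 37°C, 401 members had at least 10 extension footprints and passed a minimum of CDS footprints, and their readthrough efficiency ran from -3.66 to 7.32 with a median of 2.34. Readthrough efficiency was below 0 in 52 of the 401. The 4 highest values were those of *MCK1* (7.32), *GPI14* (6.79), *GIS3* (6.54) and *MDM1* (6.46). Their CDS footprints there numbered 463, 190, 758 and 208. *GPI14*, a mannosyltransferase gene of GPI anchor synthesis with a 9 nt extension, had 0, 0, 0 and 163 extension footprints and 190 CDS footprints in *sup45-ts* at 37°C, and its density was at least 259-fold higher than in *SUP45* at 37°C. *MDM1* (6 nt), needed for organelle inheritance, had 33 footprints in its extension and 208 in its CDS there.

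The 4 lowest values belonged to *FBA1*, *TDH1*, *HYP2* and *TSL1*. Neither end of this ranking was adjusted for extension length, and the median was 2.52 at 3 nt but 0.75 at 15 nt. *FBA1*, for fructose-bisphosphate aldolase, with a 15 nt extension, had 1, 1, 4 and 38 extension footprints, a readthrough efficiency of -3.66 in *sup45-ts* at 37°C and 1316 distal footprints in the same table. *TDH1* (15 nt), a glyceraldehyde-3-phosphate dehydrogenase gene, had 0, 0, 0 and 20 and a value of -2.93, and *TSL1* (15 nt), for a subunit of trehalose synthase, 0, 0, 0 and 15 and a value of -2.05. *HYP2* (9 nt), which encodes eIF5A, had 2, 2, 8 and 52 and a value of -2.27, but it overlaps a gene on the same strand by 300 base pairs. *TDH3* and *TDH1* both have 15 nt extensions, and in *sup45-ts* at 37°C the former had 788 extension footprints, or 4.003 times those of an average codon, against 0.654 times in *TDH1*. In that condition the mean mRNA level of *TDH1* was 282 FPKM against 16366 for *TDH3*, while their CDS held 9662 and 62206 footprints. In *SUP45* at 25°C the levels were 19.8 and 16047 FPKM, with 67420 and 337033 CDS footprints. Whether footprints shared with near-identical genes raised the CDS count of *TDH1* was not tested, so its low value and this contrast are uncertain.

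No extension footprint was counted in *sup45-ts* at 37°C in 132 of the 891 members (14.8%). They made up 24.9% of the 3 nt extensions, 16.8% at 6 nt, 10.8% at 9 nt, 11.9% at 12 nt and 6.47% at 15 nt. Their median CDS count was 185, against 516 for members with a footprint. Distal footprints were counted in 108 of the 132. The deepest were *RNR1* (3 nt), for the large subunit of ribonucleotide reductase, with 1482 CDS footprints, *TVS1* (9 nt) with 1452, *ATP3* (3 nt), for a subunit of the mitochondrial ATP synthase, with 1278, and *CDC12* (3 nt), for a septin, with 1276. *ATP3* nevertheless had 2320 distal footprints in *sup45-ts* at 37°C, against 1, 0 and 22 in the other conditions. A count of 0 allows up to 3 footprints, which in *ATP3* would be 0.692 times an average codon and in *RNR1* 1.77 times.

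In *SUP45* cells at 25°C the most extension footprints were found in *TDH3* (79), *RPL5* (73), *ASC1* (62), *HTA2* (45) and *RPS9B* (31). *ASC1* encodes the yeast RACK1 protein of the small ribosomal subunit and has a 12 nt extension. Its extension held 62, 7, 164 and 162 footprints over 109102, 13763, 129547 and 2850 in the CDS, so that its readthrough efficiency was -4.54, -4.70, -3.38 and 2.11. *RPL5* (15 nt), for the ribosomal protein that binds 5S rRNA, had 73, 0, 143 and 501, and *RPS9B* (12 nt) 31, 0, 60 and 96. *HTA2* (12 nt), a histone H2A gene, had 45, 0, 66 and 304, and its readthrough efficiency of -1.91 in *SUP45* at 25°C lay above the upper quartile of the members. At 37°C the CDS counts of *RPL5*, *RPS9B* and *HTA2* in *SUP45* were 11565, 9474 and 865, against 88052, 66514 and 4899 at 25°C.

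Gene lists were described by counts and medians only. Of 133 annotated ribosomal protein genes, 70 were members. They gave 29.1%, 5.34%, 26.5% and 5.28% of the members’ CDS footprints. In the last condition 69 of the 70 had an extension footprint, with a median readthrough efficiency of 0.75 beside 1.45 for all members. Their extensions supplied 51.8%, 8.56%, 44.3% and 15.4% of the members’ extension footprints. These larger shares did not go with a clearly higher density. Pooled density of the 70 was 1.21%, 0.408%, 3.17% and 314% of the CDS density, beside 1.17%, 0.582%, 3.29% and 306% for all members.

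Of 19 annotated glycolysis genes, 15 were members, beside 31.5% of all annotated transcripts. All 15 had extension footprints in *sup45-ts* at 37°C, at a median readthrough efficiency of 0.89 and a pooled density of 105% of the CDS. The 13 chaperone genes among the members gave 2.75% of the CDS footprints in *SUP45* at 25°C, 17.03% at 37°C and 33.1% in *sup45-ts* at 37°C. Their median in the last condition was -0.27, with 5 of 13 above 0. Their pooled density there was 212% of the CDS density, and *KAR2* held 3429 and *HSP104* 1750 of their 7185 extension footprints. The 12 translation factor genes had a median of -0.18 and a pooled density of 66.6%.

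Sterol synthesis had the highest median of the lists in *sup45-ts* at 37°C, 1.97 over 8 members with 7 above 0. Its pooled density was 1326%, and *ERG20*, for farnesyl pyrophosphate synthase, held 852 of its 1785 extension footprints. The 8 cell wall genes had a median of 1.29 and a pooled density of 601%, and the 9 respiratory genes a median of -0.04 over 7 with a footprint. All these lists held few members, and no list was tested.

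Of 14 annotated genes of termination and recycling, 3 have very short extensions. *PUB1* (9 nt), which encodes an RNA-binding protein, had 0, 0, 1 and 44 extension footprints, and a readthrough efficiency of 1.68 in *sup45-ts* at 37°C. *PAB1* (12 nt), for the poly(A)-binding protein, had 0, 0, 0 and 4, with -1.84, and *TMA64* (15 nt), for a factor associated with ribosome recycling, had 0, 0, 2 and 1. The single footprint of *TMA64* in *sup45-ts* at 37°C came with 373 CDS footprints, so no difference from *SUP45* cells was detectable.

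**Figure D5:**
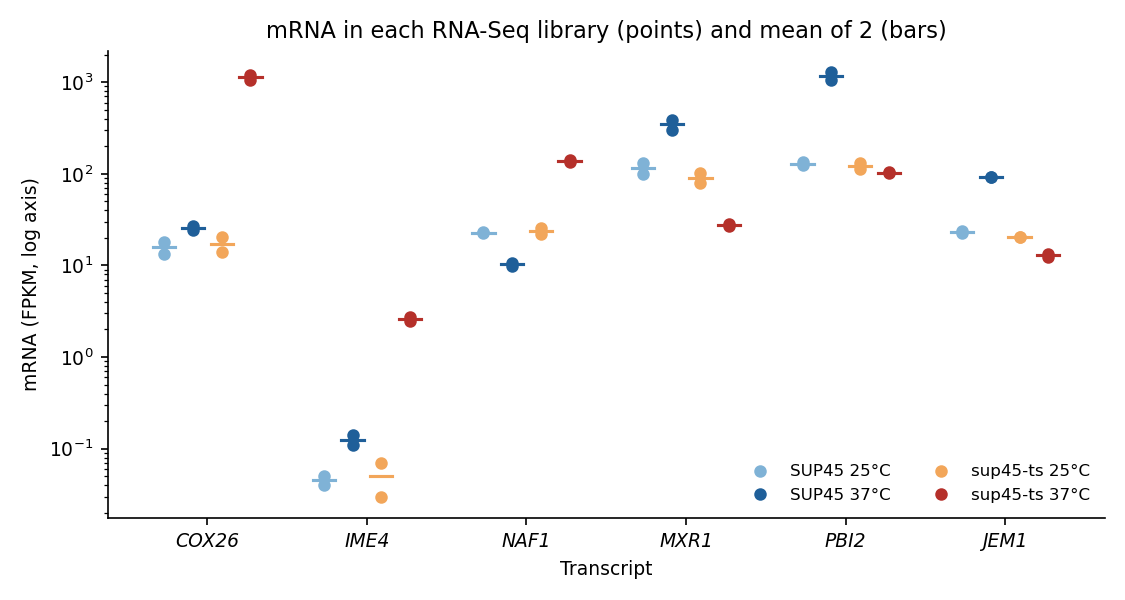
mRNA level (FPKM, log axis) in each RNA-Seq library of 6 members, the 3 with the largest rise and the 3 with the largest fall in *sup45-ts* against *SUP45* cells at 37°C. Points are libraries, and bars are the means of 2. The *COX26* libraries of *sup45-ts* at 37°C lie at 1197 and 1055 FPKM, all other *COX26* libraries between 13.4 and 26.8.

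The mRNAs with very short extensions changed along with most others. Comparing the strains at 37°C with the quasi-likelihood test of edgeR, 718 of 890 members had an adjusted p under 0.05, beside 78.9% of all 6767 tested. Higher in *sup45-ts* were 249 members (28.0%), beside 39.5% of all, and lower were 469 (52.7%), beside 39.4% of all. The 6767 include transcripts without an annotated 3’-UTR, and shares over annotated transcripts alone were not computed. The median log2 fold change was -0.25 over the members and -0.01 over all transcripts. Scaling between libraries (TMM) centers the bulk of fold changes, so higher and lower are relative to the other transcripts. Nothing in the labels says that the 2 replicates came from separate cultures, so these p-values measure the spread between the sequenced samples.

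*COX26*, for a small subunit of cytochrome c oxidase, with a 6 nt extension, rose the most. The *SUP45* libraries had 18.1 and 13.4 FPKM at 25°C and 24.1 and 26.8 at 37°C, and the *sup45-ts* libraries 20.5 and 13.9 at 25°C and 1197 and 1055 at 37°C. Only the last condition stood apart. The strain difference at 37°C was 5.48 on the log2 scale (standard error 0.20, adjusted p = 2.07e-08, edgeR). CDS footprints went from 86 in *SUP45* to 639 in *sup45-ts* (34.5 and 659 RPKM), with 127 in the extension.

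*NAF1*, for an assembly factor of H/ACA snoRNPs, with a 12 nt extension, had 9.96 and 10.5 FPKM in *SUP45* and 134 and 142 in *sup45-ts* at 37°C. The strain difference was 3.76 on the log2 scale (standard error 0.08, adjusted p = 2.73e-09, edgeR). CDS footprints were 177 in *SUP45* and 57 in *sup45-ts* at 37°C. As RPKM, which allows for the lower depth of the latter, they were 7.45 and 6.18. *IME4*, an mRNA methyltransferase gene of meiosis with a 12 nt extension, rose by 4.37 on the log2 scale (standard error 0.25, adjusted p = 2.58e-07, edgeR) from 0.14 and 0.11 to 2.50 and 2.72 FPKM. No footprint was counted in the *IME4* CDS in any of the 4 tables. The RNA-Seq kit marks strand, but whether counting used it is not stated, so reads of an antisense transcript could be included.

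*MXR1*, for a methionine sulfoxide reductase, with a 9 nt extension, fell by 3.64 on the log2 scale (standard error 0.16, adjusted p = 5.72e-08, edgeR). It had 303 and 388 FPKM in *SUP45* and 28.4 and 26.7 in *sup45-ts* at 37°C, and overlaps a gene on the same strand by 61 base pairs. *PBI2*, for an inhibitor of the vacuolar protease B, with a 12 nt extension, fell by 3.50 (standard error 0.10, adjusted p = 6.11e-09, edgeR), from 1049 and 1292 to 104 and 101 FPKM. *JEM1*, for a J-protein of the endoplasmic reticulum, with a 3 nt extension, fell by 2.83 (standard error 0.06, adjusted p = 3.11e-09, edgeR), from 91.7 and 93.3 to 13.5 and 12.4 FPKM. All 3 mRNAs were higher in *SUP45* cells at 37°C than at 25°C in both libraries, while in *sup45-ts* cells at 37°C they stayed below the level at 25°C. CDS footprints at 37°C were 3002 in *SUP45* and 230 in *sup45-ts* for *MXR1* (358 and 70.6 RPKM). For *JEM1* they were 3222 and 213 (103 and 17.5 RPKM).

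The direction of the mRNA change gave little separation in readthrough. The median readthrough efficiency in *sup45-ts* at 37°C was 1.67 over 219 members whose mRNA was higher than in *SUP45*, 1.38 over 385 whose mRNA was lower and 1.40 over 147 that did not pass. The higher group supplied 18.7% of the members’ CDS footprints in *SUP45* at 37°C and 42.6% in *sup45-ts* at 37°C. The lower group supplied 59.9% and 36.3%.

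Over all members 28.0% were higher in *sup45-ts* at 37°C and 52.7% lower, and over all transcripts 39.5% and 39.4%. By list, 12 of the 15 glycolysis genes among the members were lower and 2 higher, with a median log2 fold change of -0.87 beside -0.25 for all members. Of 13 chaperone genes 7 were higher and 1 lower, with a median of 0.35, among them *FES1* at 3.59 (adjusted p = 6.29e-09, edgeR) and *HSP104* at 1.76 (adjusted p = 9.99e-07, edgeR). *KAR2* had a log2 fold change of -0.03 (adjusted p = 0.82, edgeR). Of 70 ribosomal protein genes 18 were higher and 29 lower, with a median of -0.16.

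At 25°C few mRNAs were called different between the strains by edgeR. Of 890 members 1 was higher in *sup45-ts*, beside 0.118% of all transcripts, and 0 were lower, beside 0.0148%. In either direction 0.133% of all transcripts passed, and 142 members had an unadjusted p under 0.05, beside 877 of all 6767. DESeq2 called 20 members, beside 124 of all 6885. The 1 member, named after its value was seen, was *YRO2*, which encodes a membrane protein, higher by 1.09 on the log2 scale (adjusted p = 0.0272, edgeR). It had 9.70 and 7.86 FPKM in *SUP45* and 19.7 and 15.4 in *sup45-ts* at 25°C. The call was lost without *SUP45* replicate 2 (adjusted p = 0.0618) and without *sup45-ts* replicate 1 (adjusted p = 0.107). It was also lost when only the 4 libraries compared were fitted (adjusted p = 0.219), and these 3 are edgeR values. Without *SUP45* replicate 1, 28 members were called, beside 150 of all 6790.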

How the data were processed

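The authors processed ribosome profiling reads with cutadapt, bowtie and RSEM (per the submitters’ notes) on a transcriptome built on S288C R64-2-1, removed PCR duplicates by barcode, assigned P-sites and combined the replicates. The deposited tables hold counts of footprints (frame 0 in CDS and extension) in CDS, 3’-UTR and extension, RPKM values and the authors’ log2 readthrough efficiency. CDS counts leave out the first 15 and last 33 nt, so 48 nt were taken off the CDS length. In all 388 transcripts whose extension fills the 3’-UTR both counts were equal, so the 3’-UTR counts appear to be frame 0 as well. RNA-Seq was quantified with RSEM by the authors. The deposited expected counts were rounded and tested here with edgeR 4.0.16 (quasi-likelihood, TMM, filterByExpr, all 8 libraries, Benjamini-Hochberg, threshold 0.05). FPKM values deposited by the authors give levels.

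The deposited RSEM files of the ribosome profiling libraries list most transcripts at 0 in most libraries, and none were used. Pooled density is observed over expected footprints, with the CDS density of each transcript setting the expectation. Intervals (95%) are exact Poisson or Clopper-Pearson. On simulated counts with 200 changed transcripts, 99.5% (37°C, 6660 transcripts) and 100% (25°C, 6555) were recovered. False calls were 5.69% and 3.85%. The simulation changed few transcripts and gave the other conditions equal means, whereas 78.9% of real transcripts were called at 37°C. These rates therefore need not hold for the real calls.

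The members and gene lists were chosen with earlier results of these data known. Named genes were those with the most extension footprints in all, by length and in *SUP45* at 25°C, the highest and lowest readthrough efficiencies, the deepest without extension footprints, the largest mRNA changes with replicates that do not overlap, and the termination list. Gene coordinates come from R64, to which all 891 were matched. Alternatives covered overlap, filters, length limits, added footprints, DESeq2 1.42.0, the libraries fitted, a replicate block and each replicate left out. Stop codon identity was not computed, since no sequence was used here, and 1 result for *sup45-ts* at 25°C is not reported here. Python 3.11.15 and R 4.3.3 were used.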

Additional observations from a re-analysis of the deposited data

Results flagged for a closer look

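The strain effect on mRNA differed between the temperatures for each of the 6 members named for their mRNA change, by the interaction term of the edgeR fit with Benjamini-Hochberg adjustment over all transcripts tested. The effect at 37°C minus that at 25°C, on the log2 scale, was 5.27 for *COX26* (adjusted p = 3.85e-07, edgeR), 4.11 for *IME4* (adjusted p = 7.78e-05, edgeR) and 3.60 for *NAF1* (adjusted p = 4.29e-08, edgeR). It was -3.38 for *MXR1* (adjusted p = 1.23e-06, edgeR), -3.52 for *PBI2* (adjusted p = 8.90e-08, edgeR) and -2.74 for *JEM1* (adjusted p = 4.29e-08, edgeR). These 6 were chosen for their change at 37°C, so the interaction is not independent of the choice.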

How the results depend on the processing

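Readthrough was a single value per condition, so no replicate could be left out there and depth limits what a count of 0 shows. Values are in the order *SUP45* 25°C, *SUP45* 37°C, *sup45-ts* 25°C, *sup45-ts* 37°C unless named. Of 76 alternative values for readthrough, 38 moved. This was judged by the interval of the reported value or, for counts of members at least 2-fold higher, by the size of the change. The order of the 4 conditions was the same in the following. Pooled density became 1.27, 0.682, 3.57 and 402% with extensions up to 12 nt, and with those up to 18 nt it was 3.51 and 298% in *sup45-ts*. Without the 3 leading members it was 1.04, 3.07 and 286% (the second condition stayed within its interval), with the whole CDS length 1.298, 3.62 and 334%, and without overlapping genes 313% in *sup45-ts* at 37°C. Summed counts over summed lengths, chosen after seeing the data, gave 1.96, 0.761, 5.27 and 384%.

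With 0.5 footprints added and members without footprints kept, the median readthrough efficiency was -3.76, -4.21, -3.48 and 1.25. With at least 10 footprints it was -4.48 and 2.40 in *sup45-ts*. The share of members with a footprint, with tables thinned to the same total count, was 15.9, 8.58 and 28.1% in the first 3 conditions. Members at least 2-fold higher in *sup45-ts* at 25°C numbered 284 with 0.5 footprints added in place of the floor, and 27 at 4-fold. The extension’s share of 3’-UTR footprints was 50.8, 40.8, 64.8 and 21.7% without the 3 members with the most extension footprints, 62.3, 50.6, 69.9 and 24.01% without overlapping genes, and 64.8 and 25.7% in *sup45-ts* without the 3 with the most 3’-UTR footprints, the last chosen after seeing the data.

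For mRNA at 37°C every alternative stayed within 1.5 times the counts reported, with 4924 to 5064 transcripts and 664 to 690 members called without each replicate in turn, and the 6 named members were called in all 48 alternative values. At 25°C DESeq2 called 124 of all transcripts and 20 members, where edgeR called 9 and 1. With only the 4 libraries compared edgeR called 0 transcripts and 0 members (732 and 125 at an unadjusted p under 0.05). Without each replicate in turn 1 to 150 transcripts and 0 to 28 members were called. Replicate numbers did not pair the samples (correlation of the replicate differences 0.0372 at 37°C and 0.0172 at 25°C). With the replicate block 5392 transcripts and 727 members were called at 37°C, and 18 and 1 at 25°C.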
